A study of Saccharomyces cerevisiae with 16 samples.

Results

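The nucleotides described here are those of the yeast pre-ribosomal RNA that carried a high mutation rate in RNA that had not been treated with dimethyl sulfate (DMS). They were chosen by their untreated rates: mutated reads and effective depth were each summed over the 8 untreated libraries, and a nucleotide was selected where the summed depth was at least 1000 reads and the summed rate at least 1%. Of the 6647 nucleotides of the 35S profile, 6594 had the depth and 191 of those, of all 4 bases, reached the rate. Effective depth is the number of reads that covered a nucleotide and were kept for it, and the mutation rate is the number of mutated reads divided by that depth. The untreated rates of the 191 nucleotides are therefore a description and were not tested against those of other nucleotides.

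The series measured RNA structure in small-subunit (SSU) processomes, the large early assembly intermediates of the 40S ribosomal subunit, isolated from budding yeast (Saccharomyces cerevisiae) by way of Utp10, one of their subunits, which carried a TAP tag. All strains carried that tag and were harvested in mid-log growth in YPD, and they differed in the helicase Has1, a DEAD-box protein needed to assemble both ribosomal subunits, which was either the H375A point mutant or wild type (WT). The 16 libraries form 4 groups of 4 biological replicates: H375A with DMS, WT with DMS, H375A untreated and WT untreated. DMS was used at 1% for 5 min at 30 °C, and the labels list this protocol for the untreated samples too, so the group was taken from the treatment label. The reads were not restricted to the small-subunit part of the transcript: the 25S part, which is not in the 40S subunit, was covered as well, at 3395 nucleotides with the depth, and whether those reads came from precursor or from mature rRNA cannot be told apart here.

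DMS methylates the pairing face of unpaired A and C, and in DMS-MaPseq a reverse transcriptase reads through the added methyl group and leaves a mutation in the cDNA. A natural modification on the same face of a base can leave a mutation with no DMS, whereas 2′-O-methylation of the ribose and the isomerisation of U to pseudouridine leave the pairing face as it was. Yeast 25S rRNA carries 1-methyladenosine (m1A), made by Rrp8 and Bmt2, and 3-methyluridine (m3U), made by Bmt5 and Bmt6. Its 18S rRNA carries one hypermodified uridine, 1-methyl-3-(3-amino-3-carboxypropyl)pseudouridine (m1acp3-Ψ), whose methyl group is added by Emg1 in the nucleolus and whose acp group, the one on the pairing face, is added late in the cytoplasm by Tsr3.

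The 5 selected nucleotides listed as m1A, m3U or m1acp3-Ψ in mature rRNA are shown first, since they include the 4 highest rates of the whole profile. How much of the RNA here carried these modifications was not measured. Each line gives 25 nt of the transcript as the profile spells it, 5′ to 3′, with the listed nucleotide in capitals. The number after the base counts from the 5′ end of the profile.
A3896 (m1A 645 of 25S): ccgcccgucuugAaacacggaccaa
A5393 (m1A 2142 of 25S): gacugucuaauuAaaacauagcauu
U6094 (m3U 2843 of 25S): gcagucaagcguUcauagcgacauu
U5885 (m3U 2634 of 25S): cggcacaucuguUaaacgauaacgc
U1891 (m1acp3-Ψ 1191 of 18S): gcuuaauuugacUcaacacggggaa

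The next highest rates stood mostly at runs of 1 base. These 7 nucleotides are shown because each lies just 5′ of a run of 6 or more A or U; the selected nucleotide is in capitals.
G635 (5′ ETS 635): gggaauagguggGaaaaaaaaaaag
G1451 (18S 751): gacuuuuacuuuGaaaaaauuagag
G1753 (18S 1053): ggaucgggugguGuuuuuuuaauga
U916 (18S 216): guauuuauuagaUaaaaaaucaaug
A2527 (ITS1 27): uuuugaaaauggAuuuuuuuguuuu
C664 (5′ ETS 664): uucgguuucuuuCuuuuuuacugcu
A1361 (18S 661): uuggccgguccgAuuuuuucgugua

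The third set shows where selected nucleotides were crowded. It holds 4 of 11 stretches, picked for their number of selected nucleotides or their rates, and every selected nucleotide of a stretch is in capitals.
5′ ETS 54 to 82: AGgcUugucGuucguUAuGUUuUUgUaAA
18S 1259 to 1287: UUguGgGuggUggugCAUGgCCgUucuuA
18S 1053 to 1084: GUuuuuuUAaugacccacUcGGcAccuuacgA
ITS1 279 to 292: UaaCAaaCaCaaaC

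The rDNA repeat RDN37-1 lies on chromosome XII in the RefSeq R64 annotation, and the lengths of its parts there place the external spacer (5′ ETS) at 1 to 700 of the profile, 18S at 701 to 2500, the first internal spacer (ITS1) at 2501 to 2861, 5.8S at 2862 to 3019, the second (ITS2) at 3020 to 3251, and 25S at 3252 to 6647. The spacers are removed during ribosome assembly and the other parts are the mature rRNAs. The selected nucleotides lay in all 6 parts. There were 26 of 699 nucleotides with the depth (3.72%) in the 5′ ETS, 53 of 1800 (2.94%) in 18S, 16 of 356 (4.49%) in ITS1, 2 of 158 (1.27%) in 5.8S, 2 of 186 (1.08%) in ITS2 and 92 of 3395 (2.71%) in 25S. Summed untreated depth at the selected nucleotides reached 67115 reads in the 5′ ETS, and in ITS1 it was as low as 1013 reads.

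By base, 60 of 1772 A (3.39%), 24 of 1250 C (1.92%), 38 of 1756 G (2.16%) and 69 of 1816 U (3.80%) were selected. The 92 of 25S were 25 A, 9 C, 19 G and 39 U (42.4% U, against 25.6% of all 25S sites with the depth). The 16 of ITS1 were 6 A, 5 C, 1 G and 4 U (37.5% A, against 29.8% of its sites, and 31.2% C, against 16%). The highest rate was 75.0% among A and 47.1% among U, against 16.7% among G and 4.67% among C. The selection thus held 107 G and U, bases that DMS does not methylate on the pairing face under these conditions, and 84 A and C.

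Most of the 191 sat close to the threshold. Their median rate was 1.22%, against a median of 0.353% over all 6594 nucleotides, and 138 had a rate between 1% and 1.5%. Another 27 lay between 1.5% and 2%, 12 between 2% and 4%, 10 between 4% and 40%, and 4 above 40%. The 95% Wilson interval, which covers counting error only, stayed at or above 1% for 83 of the 191. Just inside the threshold were U5261 of 25S, with 13 mutated reads of 1292, U1976 of 18S, with 31 of 3076, and U389 of the 5′ ETS, with 266 of 26392, all at 1.01%. Just outside, G5870 of 25S had 12 of 1201, C2093 of 18S had 95 of 9506 and G681 of the 5′ ETS had 121 of 12103.

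**Figure D1:**
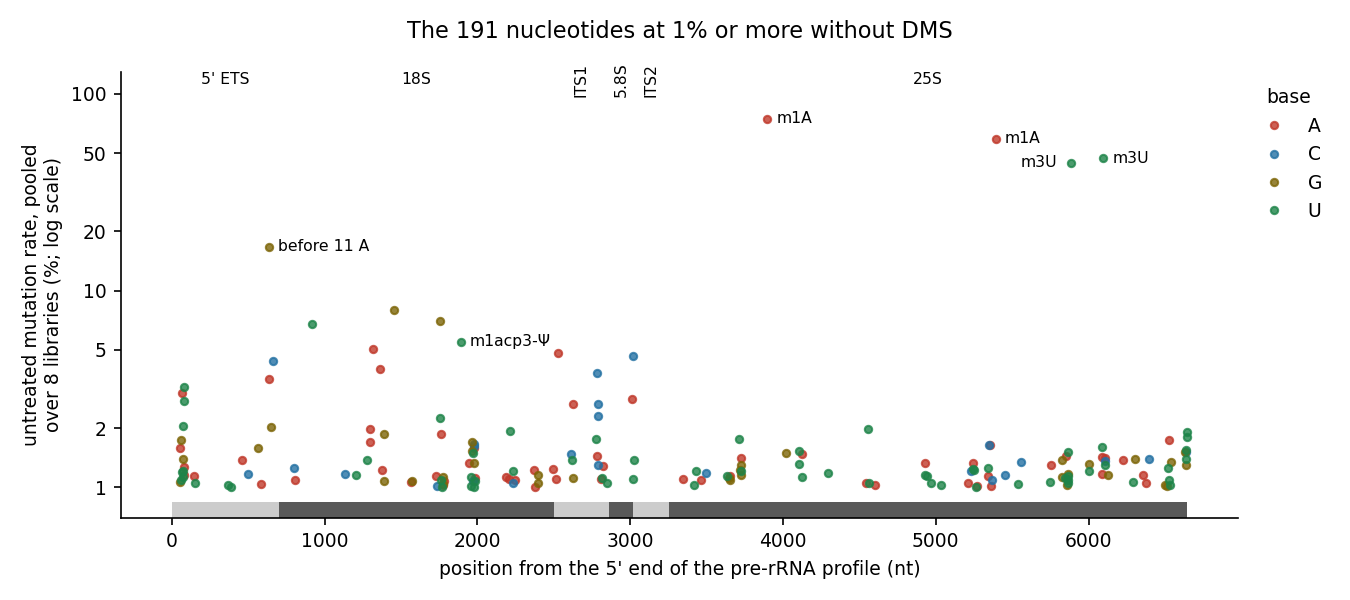
Untreated mutation rate of the 191 selected nucleotides, in percent on a log scale and summed over the 8 untreated libraries, against position along the pre-rRNA; the colour gives the base and the bar below marks spacers (light) and mature rRNAs (dark). The 4 nucleotides above 40% are the m1A and m3U positions of 25S, G635 before 11 A stands at 16.7%, and most of the others lie between 1% and 2%.

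Single untreated libraries, which are those that chose the nucleotides, varied around the summed rates. The number of the 191 at 1% or more in one untreated library was between 93 and 151, where 290 to 1015 of all 6594 nucleotides were, and 22 of the 191 were at 1% or more in all 8 libraries. In 5 or more libraries it was 108. With libraries summed by genotype, 167 were at 1% or more in untreated H375A and 143 in untreated WT, with 119 in both. Median effective depth at the 191 nucleotides was between 95 and 1615 reads in untreated libraries, and in DMS libraries it was between 119 and 1506 reads, with H375A replicate 3 the deepest in both treatments.

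Natural modifications marked few of the 191, but they marked the highest. Of 112 positions listed as modified in mature yeast rRNA, all with the depth, 10 were selected. They are 6.80% of the 147 selected nucleotides in mature rRNA, whereas listed positions are 2.09% of all mature nucleotides with the depth. Both m1A, both m3U and the m1acp3-Ψ were among the 10. The others were the N4-acetylcytidine (ac4C) C1980 of 18S, made by Kre33, and the 2′-O-methylated A1319, U1969 and U1278 of 18S and A4127 of 25S.

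A3896, the m1A at 645 of 25S, gave 78.7%, 67.6%, 74.9% and 79.1% in H375A DMS libraries, 76.8%, 73.5%, 72.7% and 69.5% in WT DMS libraries, 77.0%, 75.9%, 75.5% and 76.4% in untreated H375A and 79.8%, 75.2%, 73.3% and 69.6% in untreated WT. All 16 libraries lay between 67.6% and 79.8%, with or without DMS, and the genotypes overlapped. Summed over untreated libraries the rate was 75.0% (95% Wilson interval 73.6% to 76.4%), the highest of the profile. A5393, the m1A at 2142, gave 50%, 53.1%, 54.7% and 57.1% in H375A DMS libraries, 45.7%, 57.6%, 58.0% and 57.8% in WT DMS libraries, 46.2%, 60.1%, 59.5% and 53.7% in untreated H375A and 53.1%, 59.7%, 61.7% and 53.9% in untreated WT. The groups overlapped here too, and the lowest values came from libraries with 35 and 52 reads at the site.

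The m3U positions differed more between libraries. U6094, the m3U at 2843, gave 53.5%, 39.0%, 34.7% and 38.2% in H375A DMS libraries, 48.9%, 54.6%, 55.1% and 49.6% in WT DMS libraries, 38.9%, 38.0%, 42.7% and 42.3% in untreated H375A and 51.5%, 54.8%, 53.3% and 58.1% in untreated WT. Every untreated H375A library was below every untreated WT library, at 40.5 ± 2.32% and 54.4 ± 2.79% (mean ± SD, n = 4 each), and with DMS H375A replicate 1 overlapped WT. U5885, the m3U at 2634, gave 32%, 23.3%, 25.2% and 13.5% in H375A DMS libraries, 26.3%, 45.4%, 27.5% and 30.8% in WT DMS libraries, 40%, 28.3%, 35.5% and 55.6% in untreated H375A and 55.6%, 58.1%, 51.4% and 54.5% in untreated WT. Every WT DMS library was below every untreated WT library at U5885, and in H375A the treatments overlapped. Its depth was low, between 18 and 451 reads a library, and the highest untreated H375A value rested on 18 reads.

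U1891, the m1acp3-Ψ at 1191 of 18S, gave 1.56%, 2.93%, 4.77% and 2.67% in H375A DMS libraries, 3.76%, 14.6%, 12.4% and 10.3% in WT DMS libraries, 0.256%, 3.39%, 4.17% and 1.31% in untreated H375A and 1.73%, 11.6%, 11% and 8.97% in untreated WT. Replicate 1 was the lowest library of all 4 groups, and the other 3 WT libraries lay above every H375A library in each treatment. The summed untreated rate was 5.50% over both genotypes (95% Wilson interval 5.04% to 6.0%, counting error only). At the m1A and m3U positions it was between 44.7% and 75.0%. Summed by genotype, untreated U1891 was at 3.67% in H375A and 10.1% in WT.

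**Figure D2:**
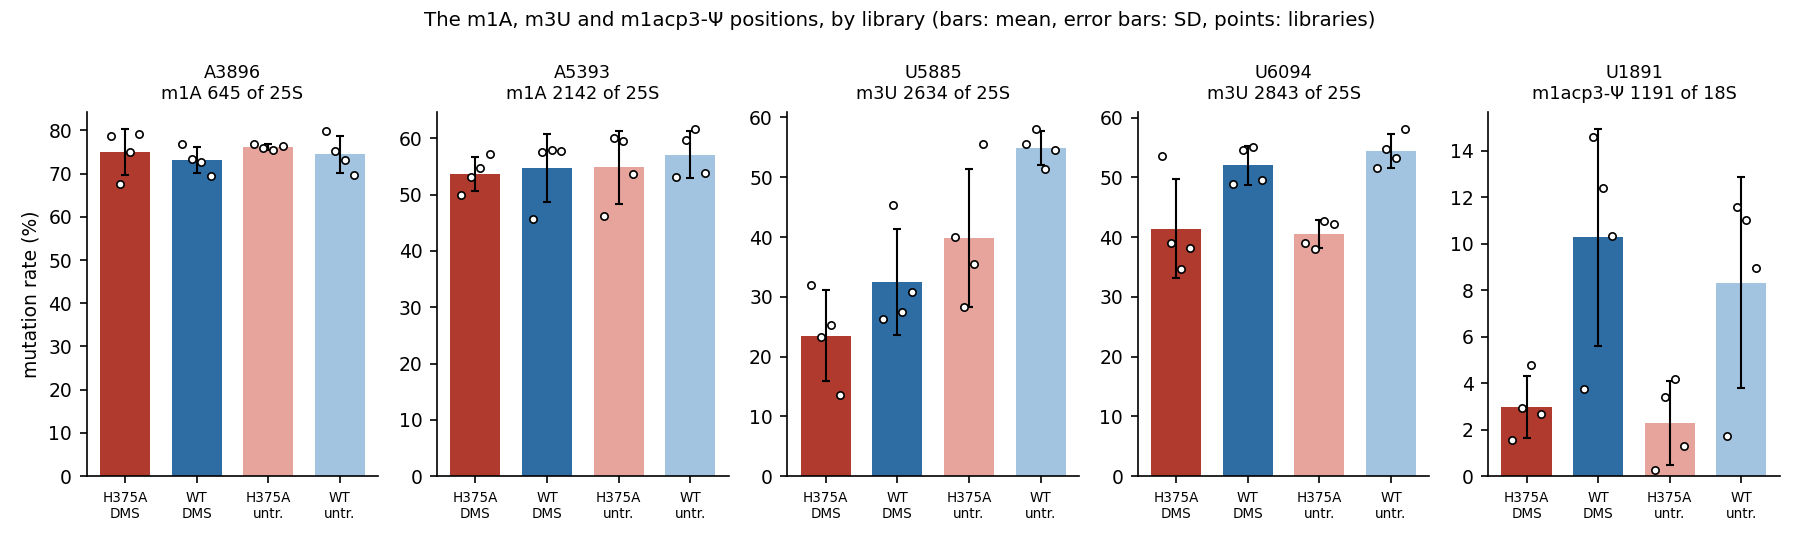
Mutation rate in percent at the 5 selected m1A, m3U and m1acp3-Ψ positions, in H375A DMS, WT DMS, untreated H375A and untreated WT libraries; bars are means, error bars SD and points the 4 libraries of a group. A3896 and A5393 are at like levels in all 4 groups. Means are lower in H375A at U6094 (untreated 40.5% in H375A and 54.4% in WT), U5885 (39.8% and 54.9%) and U1891 (2.28% and 8.32%).

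Positions listed with base modifications other than m1A, m3U or m1acp3-Ψ had low untreated rates. The share of the RNA here that carried each modification was not measured. The ac4C C1980 was at 1.66% (95% Wilson interval 1.26% to 2.20%) and the other ac4C of 18S, C2473, at 0.729%, outside the selection. The N6,N6-dimethyladenosines A2481 and A2482 near the 3′ end of 18S, which Dim1 makes, were at 0.477% and 0.911%. Summed rates with DMS were 1.88% in H375A and 1.79% in WT at A2481, and 2.43% in H375A and 2.56% in WT at A2482. The 7-methylguanosine G2275 of 18S, made by Bud23, was at 0.462%, and the 5-methylcytidines C5529 and C6121 of 25S were at 0.189% and 0.522%.

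Median rates at ribose methylation and pseudouridine were close to that of unlisted bases. The median was 0.376% over the 56 listed 2′-O-methylated positions, of which 4 were selected, and 0.337% over the 44 listed pseudouridines, of which 0 were selected and whose highest rate was 0.844%. Unlisted bases of mature rRNA had a median of 0.355%. The highest 2′-O-methylated position, A1319 (Am 619 of 18S), gave 4.49%, 5.29%, 4.53% and 5.73% in H375A DMS libraries, 4.82%, 4.16%, 3.63% and 6.05% in WT DMS libraries, 4.63%, 5.78%, 4.97% and 5.02% in untreated H375A and 4.77%, 3.89%, 5.53% and 6.32% in untreated WT. All 16 libraries overlapped, and A1319 is also the first base of a run of 5 A. The other ribose-methylated nucleotides were close to the threshold, U1969 at 1.49%, A4127 at 1.47% and U1278 at 1.38%.

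Nucleotides at runs of 1 base supplied most of the rates between 4% and 40%. Of those 10 nucleotides, 8 lay just 5′ of a run of 4 or more identical bases or were its first base, and the remaining ones were U1891 and C3020, the first nucleotide of ITS2. Over the whole selection, 46 of 191 (24.1%) lay just before, inside or just after such a run, against 641 of 6594 nucleotides (9.72%). Just before a run were 16 of the 191 (8.38%), against 100 of 6594 (1.52%). These definitions were set after the values had been seen, so the counts are a description.

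The median rate at the nucleotide 5′ of a run was between 0.299% and 0.331% before 1 to 4 A and between 0.261% and 0.348% before 1 to 4 U. It was higher from 5 A or 5 U on, with 8 sites or fewer at each such length. Before 4 A the median rate was 0.299% over 19 sites with 0 selected, and before 5 A it was 0.924% over 5 sites with 2 selected. Before 6 A stood U916 at 6.81% and G1451 at 7.99%, and G635 before 11 A stood at 16.7%. Before 4 U the median was 0.275% over 29 sites with 0 selected, and before 5 U it was 1.04% over 8 sites with 4 selected. Before 6 U stood A1361 at 4.02% and C664 at 4.38%, and before 7 U stood A2527 at 4.84% and G1753 at 6.98%. All 7 A or U runs of 6 or more had a selected nucleotide before them. Before G the medians were 0.416% for a single G, 0.499% for 3 G and 0.602% for 4 G, where 3 of 23 nucleotides were selected. Beyond that, 0 of 4 nucleotides before 5 G (median 0.622%) and 0 of 2 before 6 G (median 0.417%) were selected. The 1 nucleotide before 5 C was at 0.846%.

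**Figure D3:**
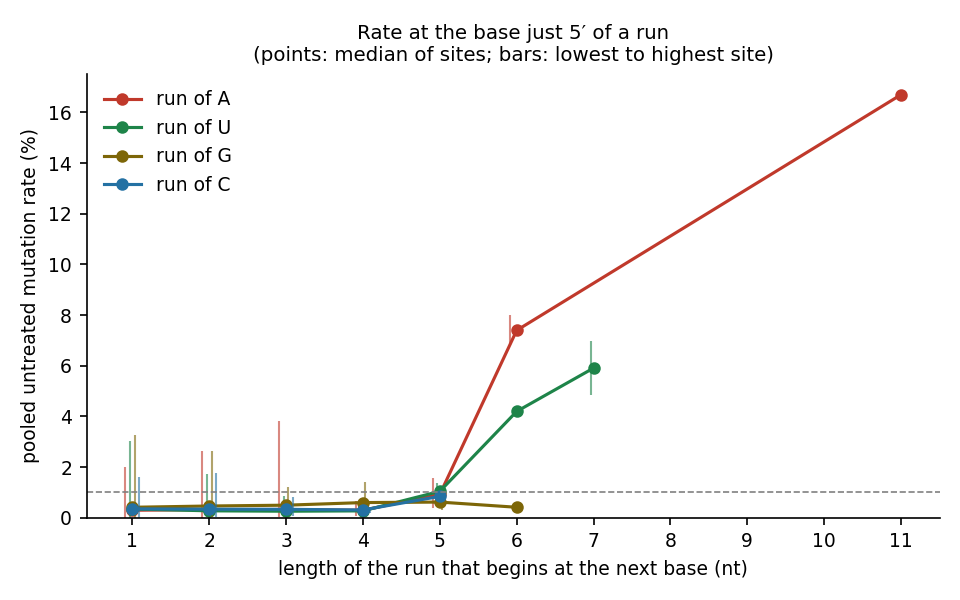
Untreated mutation rate in percent of the nucleotide just 5′ of a run, against the length of the run in nucleotides; points are medians over sites, bars reach from the lowest to the highest site, and the dashed line is the 1% threshold. Medians before A and U runs are about 1% or lower up to 5 nt and 4.20% or higher from 6 nt, and those before G runs stay under 1%.

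G635, the highest of these and in the 5′ ETS, gave 22.5%, 16%, 18.4% and 16.5% in H375A DMS libraries, 21%, 17.5%, 17.2% and 15.7% in WT DMS libraries, 22.4%, 15.2%, 16.3% and 20.6% in untreated H375A and 26.0%, 16.5%, 16.4% and 16.8% in untreated WT. The groups overlapped, with replicate 1 the highest of each. G1451 of 18S gave 1.41%, 7.84%, 8.24% and 6.55% in H375A DMS libraries, 7.27%, 8.88%, 7.39% and 9.87% in WT DMS libraries, 7.14%, 6.80%, 8.87% and 5.17% in untreated H375A and 13.3%, 6.32%, 6.85% and 7.04% in untreated WT. Its lowest and highest values came from libraries with 71 and 83 reads at the site.

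G1753 of 18S gave 4.95%, 6.54%, 8.14% and 6.58% in H375A DMS libraries, 9.59%, 7.81%, 10.1% and 9.62% in WT DMS libraries, 5.33%, 5.89%, 7.21% and 6.61% in untreated H375A and 10.1%, 5.54%, 8.26% and 5.53% in untreated WT. With DMS H375A was on average lower, and the groups overlapped. U916 of 18S gave 6.68%, 5.71%, 7.77% and 9.09% in H375A DMS libraries, 5.57%, 6.53%, 6.23% and 7.67% in WT DMS libraries, 4.91%, 6.56%, 7.58% and 7.26% in untreated H375A and 4.28%, 7.01%, 5.88% and 5.61% in untreated WT. A2527, the highest of ITS1, gave 3.33%, 5.26%, 7.06% and 8.65% in H375A DMS libraries, 1.85%, 5.38%, 8.44% and 3.15% in WT DMS libraries, 1.89%, 3.78%, 5.37% and 3.45% in untreated H375A and 4.90%, 3.78%, 4.3% and 5.85% in untreated WT. At U916 and A2527 all 4 groups overlapped.

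A larger share of reads was left out of the effective depth at some of these nucleotides. The effective depth was under 80% of the read depth at 17 of the 191 (8.90%), against 110 of 6594 nucleotides (1.67%). It was 56.8% at G1753 and 55.4% at U1754, the start of the run of 7 U, 76.9% at G635, 75.9% at A636 and 70.2% at G647 around the run of 11 A, and 64.8% at U3019 and 77.9% at C3020 across the end of 5.8S. The part of this in the rates was not tested, and with read depth as the denominator 113 nucleotides in place of 191 reached 1%.

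The end of 5.8S had the highest nucleotides of 5.8S and ITS2. C3020, the first nucleotide of ITS2, gave 5.13%, 4.35%, 4.53% and 10.3% in H375A DMS libraries, 9.80%, 3.08%, 9.62% and 0% in WT DMS libraries, 3.28%, 4.51%, 4.38% and 0% in untreated H375A and 6.38%, 5.47%, 5.69% and 4.08% in untreated WT. The groups overlapped, and both zeros came from few reads, 17 and 30. A3010 of 5.8S, at 2.82% (95% Wilson interval 2.27% to 3.5%), ranged between 0% and 12.7% in H375A and WT libraries.

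Many selected nucleotides lay close together, and the number expected from their share of all sites was not computed. In all, 53 of the 191 had another one next to them, and 88 lay in 11 stretches that together cover 261 nt. A stretch is 5 or more selected nucleotides with neighbours at most 10 positions apart. The stretch at 54 to 82 of the 5′ ETS, printed above, held 14 in 29 nt at a summed untreated depth of 17172 to 67115 reads. Its rates were between 1.06% and 3.25% with a median of 1.33%, and the nucleotides between them had a median of 0.669%. The highest were U77 at 3.25%, A70 at 3.03% and U79 at 2.75%. A70 gave 0.324%, 2.91%, 5.58% and 2.15% in H375A DMS libraries, 1.20%, 3.61%, 4.06% and 0.878% in WT DMS libraries, 0.379%, 3.09%, 3.34% and 1.07% in untreated H375A and 0.304%, 1.82%, 6.03% and 0.995% in untreated WT, so that replicates 2 and 3 were above replicates 1 and 4 in every group.

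The 18S stretch at 1259 to 1287 held 13 in 29 nt, with a median rate of 1.32% and none above 1.70%. It contains the ac4C C1980 and the 2′-O-methylated U1969. The 18S stretch at 1053 to 1084 starts with G1753 and its run of 7 U and held 9 in 32 nt, with a median of 1.09%. In ITS1, 279 to 292 held 6 in 14 nt with the highest median of the 11, 2.03%. Its highest, C2782, gave 15.0%, 4.96%, 7.89% and 4.84% in H375A DMS libraries, 17.5%, 6.45%, 6.06% and 10% in WT DMS libraries, 8.77%, 5.66%, 2.76% and 11.9% in untreated H375A and 13.8%, 5.19%, 2.59% and 3.57% in untreated WT. Those values overlapped between all groups at depths of 29 to 1088 reads a library.

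The other 7 stretches lay in 25S. They held between 5 and 9 selected nucleotides each, with medians between 1.12% and 1.51%. Summed untreated depth there was between 1202 and 4615 reads. With DMS in both genotypes, 11 of 14 in the 5′ ETS stretch were again at 1% or more. In 25S this ranged from 1 of 5 at 1992 to 2020 and 2 of 9 at 2596 to 2617 to 6 of 7 at 2835 to 2857. One of them, at 2835 to 2857 of 25S, surrounds the m3U U6094, and another, at 3377 to 3394, ends 2 nt short of the 3′ end of the profile. Across the selection, the nucleotide 3′ of a selected one was G in 84 of 191 cases (44.0%), against 26.6% of all sites, and A in 17.3%, against 26.9%. The nucleotide 5′ of it was U in 36.6%, against 27.5%.

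The DMS libraries were not used in the selection, so they show which rates recurred. Of the 107 G and U, 70 were again at 1% or more in summed H375A DMS libraries and 74 in summed WT DMS libraries, whereas 3.78% and 4.93% of all G and U sites were. Of the 84 A and C, 73 and 75 were at 1% or more in H375A and WT with DMS, where DMS itself put 36.8% and 34% of all A and C sites there. Together 128 of 191, of all 4 bases, were at 1% or more with DMS in both genotypes. The share of all sites at 1% or more in both genotypes was not computed. For each genotype apart it was 18.9% in H375A and 18.2% in WT. Recurrence among G and U was 34 of 39 in both genotypes where the untreated Wilson bound had stayed at 1% or more, and 24 of 68 where it had not. U2850 of ITS1, with 11 mutated untreated reads of 1048, had 0 mutated reads in all 8 DMS libraries, at 599 reads in H375A and 229 in WT.

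The ratio of DMS to untreated rate was lower at the selected A and C than at A and C in general. This contrast uses the rates that chose the nucleotides, so it is given without a test. The median ratio of summed DMS to summed untreated rate was 1.31 in H375A and 1.34 in WT for the 84 A and C, against 2.06 and 2.04 over all A and C sites with the depth. For the 107 G and U it was 0.891 in H375A and 1.07 in WT, against 1.09 and 1.14 over all G and U sites. With every DMS library above every untreated one were 7 of 84 A and C in H375A and also 7 in WT (8.33%), where the shares over all A and C sites were 21.5% and 22.4%. For G and U they were 3 and 2 of 107, where 1.82% and 1.54% of all G and U sites were. The H375A ratio of A and C was 1.09 with the mean of library rates in place of summed reads.

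**Figure D4:**
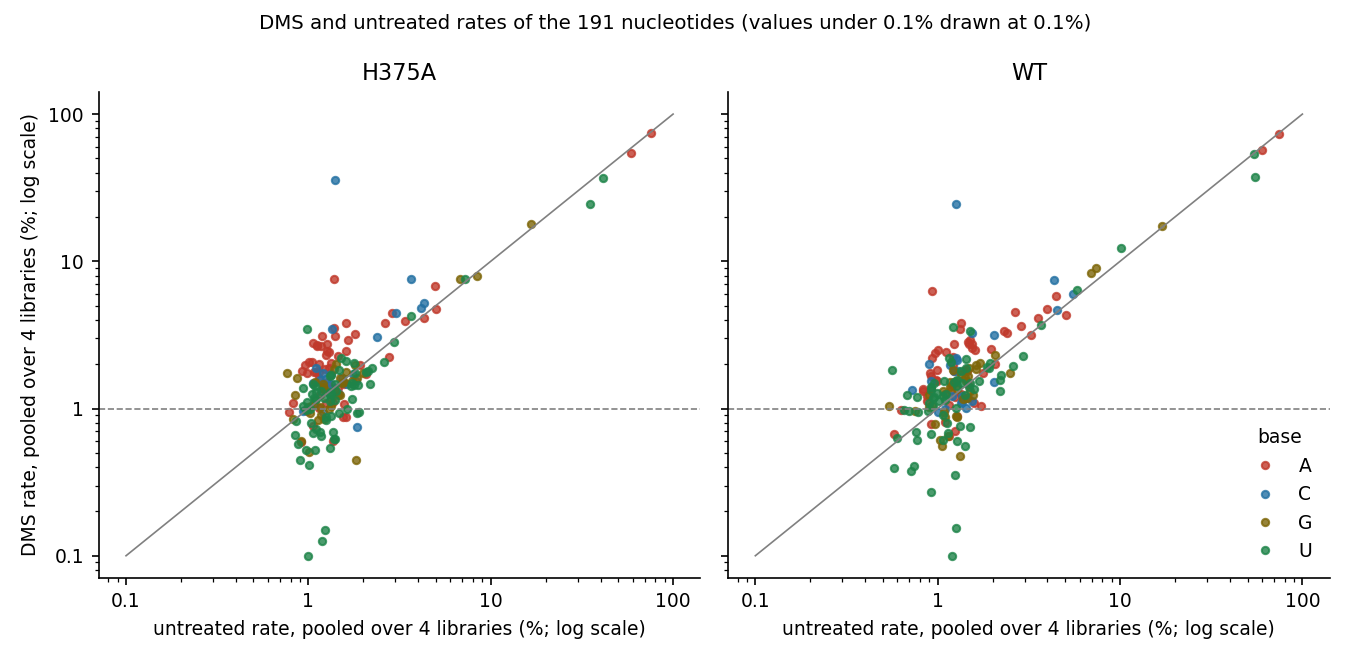
Summed mutation rate with DMS against summed rate without DMS of the 191 selected nucleotides, in percent on log scales, in H375A (left) and WT (right); the diagonal marks equal rates, the dashed line 1% with DMS, and the colour the base. Most points follow the diagonal over the whole range, and C5557, at 35.7% in H375A and 24.5% in WT with DMS, stands far above it.

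Every DMS library was above every untreated one in both genotypes at 2 of 84 A and C, C5557 and A2371, and at 0 of 107 G and U. The share of all sites above in both genotypes was not computed. For all A and C sites it was 21.5% in H375A and 22.4% in WT, each genotype apart. C5557 and A2371 were chosen for description after their values were seen. C5557 of 25S gave 32.3%, 33.3%, 36.2% and 37.0% in H375A DMS libraries, 21.8%, 25.9%, 23.5% and 24.2% in WT DMS libraries, 3.12%, 1.5%, 1.10% and 3.90% in untreated H375A and 0%, 1.10%, 1.57% and 1.99% in untreated WT. The ratio of summed rates was 25.4 in H375A and 19.5 in WT, and with DMS each H375A library was above each WT library. A2371 of 18S gave 6.62%, 7.32%, 7.48% and 10.4% in H375A DMS libraries, 7.64%, 6.25%, 5.51% and 7.43% in WT DMS libraries, 2.86%, 1.09%, 1.31% and 0.858% in untreated H375A and 1.09%, 0.724%, 1.06% and 1.10% in untreated WT. The ratios were 5.47 and 6.75, and the genotypes overlapped.

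The selection used no genotype label, but it did use the untreated rates of both genotypes, weighted by depth, and 72 of the 191 were at 1% or more in 1 genotype only. Counts and medians of the selected nucleotides without DMS are therefore a description, whereas the DMS libraries had no part in the selection. The genotype comparison asked whether untreated rates and DMS rates differed between H375A and WT, with edgeR's quasi-likelihood test on mutated reads against effective depth over all sites with enough reads, and Benjamini-Hochberg adjustment over all of them. Without DMS, 1 of 5337 sites was called at an adjusted p under 0.05 (0.0187%), and this was U1891. With DMS, 17 of 5713 sites were called (0.298%), and of the 182 selected nucleotides tested 1 was called, again U1891; the other 9 of the 191 had a summed depth under 1000 or under 10 mutated reads with DMS. At an unadjusted p under 0.05 were 5 of the 191 without DMS, where 125 of all 5337 sites were, and 10 of the 182 with DMS, where 254 of all 5713 sites were. The median log2 difference of H375A minus WT was 0.05 without DMS, against 0.02 over all sites tested, and -0.07 with DMS, against 0.00 over all.

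By the edgeR test U1891 was lower in H375A in both treatments. Untreated, it averaged 2.28 ± 1.81% in H375A and 8.32 ± 4.54% in WT (SD, n = 4 each), with a log2 difference of -1.67 (SE 0.33, edgeR adjusted p = 0.00161). With DMS it averaged 2.98 ± 1.33% in H375A and 10.3 ± 4.67% in WT, with a log2 difference of -1.60 (SE 0.21, edgeR adjusted p = 1.12e-10). In each treatment the groups overlapped through WT replicate 1. Two-sided exact permutation tests on the library rates of U1891 gave p = 0.0857 untreated and p = 0.0571 with DMS, where 4 against 4 libraries cannot go below 0.0286. The edgeR fit gave every site the same spread, so the scatter of U1891 itself did not enter it. That scatter entered the permutation tests and the DESeq2 and quasi-binomial fits given below. The untreated call was lost without WT replicate 2 (adjusted p = 0.314), WT replicate 3 (0.178), H375A replicate 1 (0.0502) or H375A replicate 4 (0.0852), and the call with DMS held without any 1 library. The untreated call was also lost with DESeq2 (adjusted p = 1.00), with at least 80 mutated reads a site (0.832) and with a quasi-binomial model (0.975), and that model ended the call with DMS too (0.394).

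At U6094 the untreated genotypes did not overlap. Its untreated log2 difference was -0.43 (SE 0.25, edgeR adjusted p = 0.999). The two-sided exact permutation test on its 8 untreated libraries gave p = 0.0286, the smallest these groups allow. It was 1 of 10 such tests run on the m1A, m3U and m1acp3-Ψ positions. The 8 untreated libraries also took part in the selection, so untreated permutation p-values here and for U1891 are a description. With DMS U6094 averaged 41.4 ± 8.30% in H375A and 52.0 ± 3.24% in WT, with a log2 difference of -0.40 (SE 0.15, edgeR adjusted p = 0.619) and an exact permutation p of 0.0857. U5885 was at 39.8 ± 11.5% in untreated H375A and 54.9 ± 2.79% in untreated WT, a difference that did not pass (exact permutation p = 0.114). With DMS it was at 23.5 ± 7.64% in H375A and 32.5 ± 8.81% in WT (exact permutation p = 0.2), and its summed depth there was under 1000 reads, so that it was not in the edgeR fit. The m1A positions did not pass either, with exact permutation p = 0.486 for untreated A3896 and 0.543 for untreated A5393. Their log2 differences were 0.03 (SE 0.24) and -0.05 (SE 0.28).

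Few other selected nucleotides had genotypes without overlap. Without DMS, H375A was below WT at 4 of 191 (U6094, U3712, A1761 and U4560), where 1.11% of all tested sites were. It was above WT at 1 (C5231), where 1.03% were. The untreated rates of both genotypes chose the nucleotides, so these untreated counts are a description. C5231 averaged only 0.414% in untreated WT, and U4560 only 0.580% in untreated H375A. With DMS, H375A was above WT at 5 of 182 (C5557, A1944, U5847, U2779 and G5865), where 1.21% of sites were, and below WT at 0, where 1.26% were. C5557 averaged 34.7 ± 2.27% in H375A and 23.8 ± 1.70% in WT with DMS, with a log2 difference of 0.52 (SE 0.16, edgeR adjusted p = 0.248). A1944 of 18S averaged 3.63 ± 0.968% in H375A and 1.74 ± 0.56% in WT with DMS (log2 difference 0.93, SE 0.30, edgeR adjusted p = 0.320). Neither passed the test over all sites.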

How the data were processed

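Per the file headers, each of the 16 deposited files, 1 a library, gives for each nucleotide of the 35S transcript the count of mutated reads, the read depth and the effective depth, and a mutation rate as a fraction, which equalled mutated reads over effective depth. Aligner, mutation caller, versions and filters are not given in the sources used here. Mutated reads per library were between 5955 and 166512. The replicates are described as biological by the submitters. Reads carried no stated molecular identifiers, so Wilson intervals cover counting error only.

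The selection summed counts over the 8 untreated libraries. The nucleotides and lists were chosen with earlier results of these data known, and the definitions of runs and stretches were set after seeing the data. Modifications were listed from general knowledge of yeast rRNA; all 112 listed bases matched the profile. Named nucleotides are the 10 highest, every listed modification, every genotype call, the highest of each rRNA part and those next to the threshold; others are named as chosen after their values were seen, among them C2782, A70, A1944, the non-overlapping ones and those before runs.

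Genotypes were compared with edgeR 4.0.16 in R 4.3.3 (quasi-likelihood test, offset log effective depth, with a median-ratio factor for DMS libraries, no block) at sites with a summed depth of 1000, depth in each library and at least 10 mutated reads. Tables were made with pandas 2.3.3 in Python 3.11.15. In simulated counts with 200 changed sites, 33% of 4-fold and 0% of 2-fold changes were recovered untreated, and 46.5% and 16% with DMS. Alternatives were DESeq2 1.42.0, other read minimums and scaling, a replicate block, a quasi-binomial model added after seeing the data, other denominators and depth minimums, and leaving out each library.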

Additional observations from a re-analysis of the deposited data

Results flagged for a closer look

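Among 80 values of 20 named nucleotides in 4 groups, 6 had 1 library far from the other 3, by the gap to the nearest library divided by the range of the group (Dixon's 95% criterion), where chance gives about 4. A5393 was at 45.7% in WT DMS replicate 1, with 35 reads, against 57.6% to 58.0% in the other 3 libraries (gap over range 0.967). G635 was at 26.0% in untreated WT replicate 1, with 269 reads, against 16.4% to 16.8% (0.958). G1451 was at 13.3% in the same library, with 83 reads, against 6.32% to 7.04% (0.897). C1980 was at 2.05% in WT DMS replicate 4, with 3 mutated reads of 146, against 0.893% to 0.984% (0.921). C3020 was at 10.3% in H375A DMS replicate 4, with 4 mutated reads of 39, against 4.35% to 5.13% (0.868). U5261 was at 5.13% in untreated WT replicate 4, with 39 reads, against 0% to 0.699% (0.864).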

How the results depend on the processing

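The number of selected nucleotides, 191, was 113 with read depth as the denominator and 74 with 5 times the depth minimum. It was 258 with the mean of library rates (145 of the 191 among them), 205 with a lower depth minimum, and 190 to 209 leaving out 1 library, with 138 of the 191 left without H375A replicate 3. With the mean of library rates, 134 and 143 were at 1% or more with DMS in H375A and WT, and the H375A ratio for A and C was 1.09.

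The untreated genotype count of 1 was 0 with DESeq2, 0 with at least 80 mutated reads and 0 with the quasi-binomial model chosen after seeing the data, and 0 to 1 leaving out a library; at an unadjusted p under 0.05 there were 125 sites by edgeR, 18 by DESeq2, 9 with at least 80 mutated reads and 243 by the quasi-binomial model. The adjusted p of untreated U1891 was 1.00 with DESeq2, 0.832 with at least 80 mutated reads and 0.975 with the quasi-binomial model. With DMS, DESeq2 called 9 sites in place of 17, and the quasi-binomial model called 0 (371 at an unadjusted p under 0.05; U1891 adjusted p = 0.394), and leaving out a library gave 5 to 25; the lowest was without WT replicate 2, and it was 7 without WT replicate 3 or H375A replicate 2 and 10 without H375A replicate 3. U1891 was lower in H375A in every setting run, and the causes of the lost calls were not tested.

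With the replicate number as a block, the untreated count was 1 and the DMS count 35, of which 3 were selected nucleotides (U6094 with an adjusted p of 0.00461). The numbers were not taken as pairing the libraries, and not every library correlated best with its own number. Deviations of same-numbered H375A and WT libraries correlated at 0.0904 to 0.429 untreated and 0.0311 to 0.238 with DMS. Those of differently numbered libraries correlated at -0.356 to 0.334 untreated and -0.220 to 0.226 with DMS. A shared effect of the replicate number is therefore not excluded.

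Depth is a limit in ITS2, where 186 of 232 nucleotides had the depth, and at sites of ITS1 and 25S where some libraries had under 50 reads.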
